A study of Mus musculus with 4 samples.

Results

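Axon guidance ligands and receptors were followed in single cells of the otic region of the mouse embryo, across otic epithelium, neurons, ectoderm and mesenchyme. The 69 members were taken by gene symbol out of 32285 genes in the count matrices, without regard to their values. They comprised 5 ephrin-A and 3 ephrin-B ligands, 9 EphA and 5 EphB receptors, 7 class 3 semaphorins, 13 semaphorins of classes 4 to 7, 9 plexins, 2 neuropilins, 3 Slit ligands, 4 Robo receptors, 4 netrins and 5 netrin receptors (Dcc and Unc5a to Unc5d).

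Guidance molecules steer growing axons and migrating cells, and many also act in epithelial morphogenesis. Ephrins are membrane-bound ligands of Eph receptor tyrosine kinases. Secreted class 3 semaphorins act mostly through complexes in which a neuropilin binds the ligand and an A-type plexin signals, whereas class 4 to 7 semaphorins bind plexins directly. Slits repel through Robo receptors, and netrins attract through Dcc or repel through Unc5 receptors. In the inner ear, Eph receptors, neuropilins, Slits and Robos are known for roles in the growth and sorting of cochleovestibular ganglion axons, and Ntn1 for a role in the formation of the semicircular canals.

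The cells came from embryos at stage E10.5, of 2 genotypes on the Swiss-Webster strain. The conditional knockout (cKO) libraries, n = 2, came from embryos of the genotype Tbx2f/f;Tbx3f/f with Pax2-Cre and the reporter allele Rosa26Gfpf/+, in which Cre deletes the floxed genes of the T-box transcription factors Tbx2 and Tbx3. The control libraries, n = 2, came from embryos with Pax2-Cre and Rosa26GFPf/+ alone, so that Cre and the GFP reporter were carried by both genotypes. Pax2-Cre is active in the otic lineage and in parts of the neural tube, and GFP-positive, DAPI-negative cells were sorted, so every class below holds cells of the Cre lineage or cells carried through the sort. Per the labels' protocols, vesicles with the ganglion, adjacent neural tube and pharyngeal cells were dissected from 2 cKO and 3 control embryos and pooled. How the embryos were divided among libraries is not stated, so the spread behind each p-value is that of these libraries and may be technical. The title of the series asks how Tbx2 and Tbx3 act in the fate of otic cells.

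The cKO 1 and cKO 2 libraries held 106769747 and 124986694 unique molecular identifiers (UMIs), and the control 1 and control 2 libraries 128205192 and 111724972. After filtering, 3220 and 3713 cKO cells and 3869 and 3597 control cells were kept, with median UMI counts between 26970 and 30081. Mitochondrial genes took a median of 1.31% and 1.38% of a cell's UMIs in the cKO libraries and 2.41% and 2.96% in the control libraries, and their part in the results was not tested. Any pair of libraries shared 1 to 5 cell barcodes.

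Cells were grouped by clustering on variable genes from which the guidance members had been left out, and clusters were named by marker genes. The names mean resemblance to those markers. Otic epithelium-like cells numbered 841 and 1613 in the cKO libraries and 1797 and 1593 in the control libraries. Cells like placodal sensory neurons, which form the cochleovestibular ganglion, numbered 314 and 377 in cKO and 634 and 723 in control. Epibranchial neuron-like cells, the lineage of the geniculate, petrosal and nodose ganglia, numbered 324 and 407 in cKO and 337 and 296 in control. Ectoderm-like cells numbered 339 and 288 in cKO and 216 and 49 in control, and mesenchyme-like cells 277 and 83 in cKO and 115 and 167 in control.

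Within the classes the clusters were not evenly shared. In the otic class, clusters 0 and 3 held 50.7% and 37.2% of cKO cells and 0.236% and 0.206% of control cells. Clusters 8, 11 and 13 held 17.99%, 17.3% and 15.6% of control otic cells and 0.367%, 0.0407% and 0.530% of cKO otic cells. Clusters 2, 5 and 19 had at least 20 cells in every library. Among placodal neurons, clusters 1 and 18 were shared in this sense, and clusters 16 and 17 held 2.17% and 3.33% of cKO cells, against 22.6% and 20.8% of control cells. In the epibranchial class, cluster 9 held 53.1% of cKO and 35.7% of control cells, and cluster 12 held 26.9% of cKO and 54.8% of control cells. Changes within a class therefore combine changes within clusters with changes in which clusters make up the class, and values for shared clusters are given for some of the members.

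The targeted genes were lower in the cKO libraries of the otic class. Tbx3 stood at 15.3 and 12.7 CPM (UMI counts scaled to the total of the class and, for tests, by TMM) in cKO otic cells, against 57.5 and 55.0 CPM in control otic cells, a log2 change of -2.01 (edgeR quasi-likelihood test, adjusted p = 1.10e-06). Tbx2 stood at 69.6 and 70.2 CPM in cKO and 84.3 and 91.7 CPM in control otic cells (log2 -0.33, edgeR adjusted p = 0.00501). In placodal neurons Tbx3 had 34.9 and 27.4 CPM in cKO and 99.8 and 96.7 CPM in control (log2 -1.66, edgeR adjusted p = 9.27e-05), whereas Tbx2 had 20.03 and 23.4 CPM in cKO and 17.7 and 19.2 CPM in control (adjusted p = 0.182). The counts are of 3' ends of whole genes, so a transcript that lacks the floxed part can still be counted.

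The promoters of 4 members on which the results below turn are shown because these members changed together in the otic, placodal and epibranchial classes, Nrp2 and Epha5 downwards and Efna4 and Slit3 upwards. Each run is the 250 bases before the gene's start in RefSeq, 5' to 3' on the gene's strand, build GRCm38.p6. Capitals mark the 7 letters GGTGTGA, the core of the sequence that T-box proteins bind, searched on both strands.
Nrp2, neuropilin 2, chr1:62703067-62703316, plus strand: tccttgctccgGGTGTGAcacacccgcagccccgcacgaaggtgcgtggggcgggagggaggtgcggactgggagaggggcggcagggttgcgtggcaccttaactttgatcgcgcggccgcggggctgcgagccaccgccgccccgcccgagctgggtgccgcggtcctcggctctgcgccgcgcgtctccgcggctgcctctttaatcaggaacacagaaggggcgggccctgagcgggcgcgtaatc
Epha5, ephrin receptor A5, chr5:84417383-84417632, minus strand: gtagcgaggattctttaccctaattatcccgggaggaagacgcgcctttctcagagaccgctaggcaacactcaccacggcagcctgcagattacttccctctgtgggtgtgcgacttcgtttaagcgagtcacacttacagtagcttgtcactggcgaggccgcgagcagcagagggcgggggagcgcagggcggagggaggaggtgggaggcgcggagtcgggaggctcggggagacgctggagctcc
Efna4, ephrin-A4, chr3:89338029-89338278, minus strand: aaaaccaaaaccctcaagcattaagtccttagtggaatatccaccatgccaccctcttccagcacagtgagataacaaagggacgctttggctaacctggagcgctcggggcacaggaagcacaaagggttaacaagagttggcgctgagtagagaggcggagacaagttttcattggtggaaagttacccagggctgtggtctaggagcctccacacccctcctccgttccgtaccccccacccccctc
Slit3, slit guidance ligand 3, chr11:35121206-35121455, plus strand: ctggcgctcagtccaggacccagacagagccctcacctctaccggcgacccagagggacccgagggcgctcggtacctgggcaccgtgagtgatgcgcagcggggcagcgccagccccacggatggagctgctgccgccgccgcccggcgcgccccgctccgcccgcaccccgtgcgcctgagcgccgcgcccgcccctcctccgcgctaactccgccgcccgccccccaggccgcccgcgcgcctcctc

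The 7 letters stand 239 bases upstream of the Nrp2 start in RefSeq and do not occur in the other 3 windows. GENCODE, used for the gene positions below, starts Slit3 at 35121224 and Nrp2 at 62703285, inside these RefSeq windows. Most of the Slit3 window and the end of the Nrp2 window thus lie within the GENCODE genes, and bases before those starts were searched only in part. Of all 32851 promoter windows of this length, 1095 (3.33%) hold them on either strand. Promoters were found for 59 of the 69 members, 75 windows in all, of which 3 (4%) hold the letters, in Efna1, Nrp2 and Sema6c. A match is a description of the letters and not of binding.

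Guidance members had their highest levels in different classes, as the map of levels by class and genotype shows. Of the 69 members, 17 had their highest control level in ectoderm, 17 in neural tube neurons, 12 in epibranchial neurons, 11 in neural tube progenitors, 5 in placodal neurons, 5 in leukocytes, 1 in otic epithelium (Sema3b) and 1 in mesenchyme (Efna2). Classes with fewer than 20 cells in a library were not compared. These were endothelium-like cells (19 in control 2) and neural crest or glia-like cells (14 in cKO 2 and 16 in control 1). Some highest levels were near 0, as for Robo4 (mean 0.523 CPM in neural tube neurons). Levels in this description are CPM of the class total. They are compared within a gene and across classes, because UMIs of 3' ends are not scaled to gene length.

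**Figure D1:**
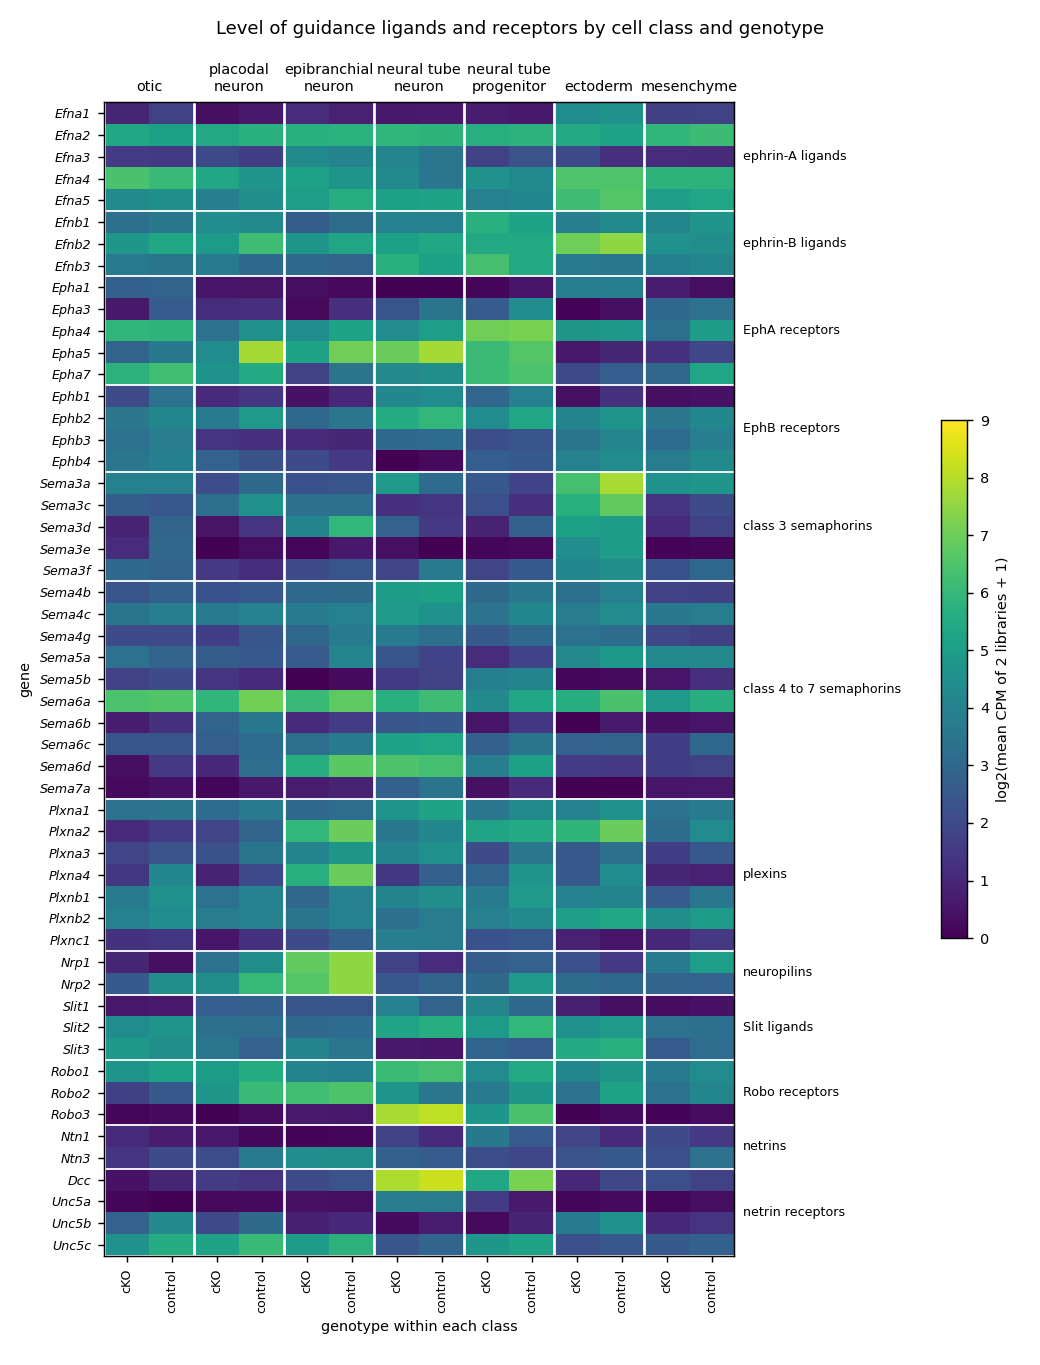
Level of 53 of the 69 guidance members, those with a mean of at least 10 CPM in a genotype of a class, as log2(mean CPM of 2 libraries + 1), in rows by family and in columns by 7 classes, cKO left of control. Epha5 is bright in control placodal neurons, Plxna2 and Plxna4 in epibranchial neurons, Robo3 and Dcc in neural tube neurons and Efnb2 and Sema3a in ectoderm.

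Among the ligands, Efna1, Efna4, Efna5, Efnb2, Sema3a, Sema3c, Sema3e and Sema3f had their highest control level in ectoderm. Efnb2, a ligand of EphB receptors and Epha4, stood at 123.03 and 131 CPM in cKO and 178 and 177 CPM in control ectoderm, and between 36.7 and 75.0 CPM in control otic cells and in both control sensory neuron classes. Efna5 had 78.2 and 66.6 CPM in cKO and 88.7 and 101 CPM in control ectoderm, above every other class compared. Sema3a, the founding chemorepellent of class 3, had 75.5 and 83.3 CPM in cKO and 182 and 267 CPM in control ectoderm, against 13.3 to 15.2 CPM in control otic cells. Sema3c followed the same order, with 53.9 and 47.5 CPM in cKO and 106 and 115 CPM in control ectoderm. Sema3d differed from both: in control libraries it was highest in epibranchial neurons (59.6 and 62.9 CPM), then in ectoderm (30.9 and 30.5 CPM).

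Receptors separated the neuron types. Robo3, which sets commissural axons apart, and Dcc, the netrin receptor of the same axons, were highest in neural tube neurons. In neural tube neurons Robo3 stood at 209 and 237 CPM in cKO and 252 and 305 CPM in control, and it stayed under 1 CPM in every library of the otic, placodal and epibranchial classes. Dcc stood at 261 and 212 CPM in cKO and 276 and 342 CPM in control neural tube neurons, and between 1.58 and 4.59 CPM in control sensory neurons. Robo3 was concentrated in neural tube neuron cluster 26, which is led by Robo3 and also holds Lbx1 and Lhx1, with 769 and 844 CPM in cKO and 582 and 771 CPM in control.

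Sensory neurons carried Robo2, neuropilins and Epha5, with little Robo3 or Dcc, and Epha5 was also high in control neural tube neurons. Robo2, a receptor of the Slits, stood at 74.1 and 74.8 CPM in cKO and 89.8 and 87.6 CPM in control epibranchial neurons, and at 26.2 and 25.5 CPM in cKO and 65.3 and 66.8 CPM in control placodal neurons. In neural tube neurons it had 23.3 and 27.0 CPM in cKO and 9.48 and 12.2 CPM in control. Epha5, a receptor of ephrin-A ligands, reached 229 and 215 CPM in control placodal neurons, 128 and 133 CPM in control epibranchial neurons and 171 and 269.7 CPM in control neural tube neurons. The control libraries of placodal and neural tube neurons overlapped in Epha5. In leukocyte-like cells, which should lack it, Epha5 had 1.12 and 0 CPM in cKO and 0 CPM in both control libraries.

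In the epithelium Epha4 had 57.8 and 60.9 CPM in cKO and 56.8 and 56.2 CPM in control otic cells. In control it was higher in neural tube progenitors, at 132 and 156 CPM, and lower in placodal neurons, at 22.2 and 21.1 CPM. Epha7 had 49.3 and 57.5 CPM in cKO and 69.2 and 78.3 CPM in control otic cells. Levels of Slit1, Robo4, Unc5a, Ntn4 and Ntn5 in otic epithelium were all under 1 CPM in every library. Ntn1 stayed between 0.436 and 1.35 CPM in otic libraries.

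Placodal neurons were compared with otic epithelium within all 4 libraries, to see which members separate neurons from the epithelium they delaminate from. Of 60 members tested, 23 were higher and 25 lower in placodal neurons (edgeR, library as a block), against 51.8% of all genes called in either direction. Nrp1, a receptor of class 3 semaphorins and of vascular endothelial growth factor, had the largest difference, at 10.8 and 8.98 CPM in cKO and 19.9 and 21.3 CPM in control placodal neurons, against 1.19 and 0.663 CPM in cKO and 0.332 and 0.220 CPM in control otic cells (log2 4.70, SE 0.60, adjusted p = 0.00187). Robo2 (log2 3.71), Slit1 (3.37), Sema6b (3.22) and Epha5 (3.15) were also higher in placodal neurons. Lower in placodal neurons were Sema3e (-4.47), Epha1 (-3.78), Ephb3 (-2.83) and, among the Slits, Slit3 (-1.49) and Slit2 (-1.26). Slit1 and Robo2 were thus on the neuronal side, and Slit2 and Slit3 on the epithelial side.

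Both sensory neuron types differed from each other in plexins, neuropilins and semaphorins. Of 55 members tested in epibranchial over placodal neurons, 23 were higher and 16 lower, against 60.2% of all genes called. Plxna4 had 42.0 and 55.2 CPM in cKO and 112 and 114 CPM in control epibranchial neurons, against 0.570 and 1.19 CPM in cKO and 2.31 and 3.52 CPM in control placodal neurons (log2 5.36, SE 0.15, edgeR adjusted p = 4.91e-06). Plxna2, another A-type plexin, had 60.9 and 62.9 CPM in cKO and 116 and 114 CPM in control epibranchial neurons, against 2.94 and 2.89 CPM in cKO and 5.65 and 7.05 CPM in control placodal neurons (log2 4.24, SE 0.09, edgeR adjusted p = 3.71e-06). No library of either type overlapped for these plexins.

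The ligand side split in the same comparison. Sema3d (log2 5.11) and Sema6d (4.04) were higher in epibranchial neurons, and Sema5b (-3.07), Sema6b (-2.54), Sema3g (-1.67) and Sema3c (-0.84) were higher in placodal neurons. Sema5b was low in both types, at 0 to 0.200 CPM in epibranchial and 0.919 to 1.71 CPM in placodal neurons. In cKO libraries Sema3c was at a like level in both types, at 9.30 and 8.36 CPM in epibranchial and 9.88 and 8.34 CPM in placodal neurons, against 9.25 and 6.91 CPM in epibranchial and 24.2 and 21.9 CPM in placodal neurons of control. Nrp1 (3.19), Nrp2 (1.68), Efna3 (2.59) and Efna5 (1.13) stood higher in epibranchial neurons. Epha7 (-2.62), Unc5b (-2.51), Efnb1 (-1.63) and Robo1 (-1.44) stood higher in placodal neurons. Epha5 was not called between the neuron types by this test, which takes both genotypes together. In control libraries Epha5 was higher in placodal neurons (226 and 214 CPM) than in epibranchial neurons (119 and 125 CPM). In cKO libraries the order was reversed, with 17.1 and 25.4 CPM in placodal and 26.6 and 45.0 CPM in epibranchial neurons.

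**Figure D2:**
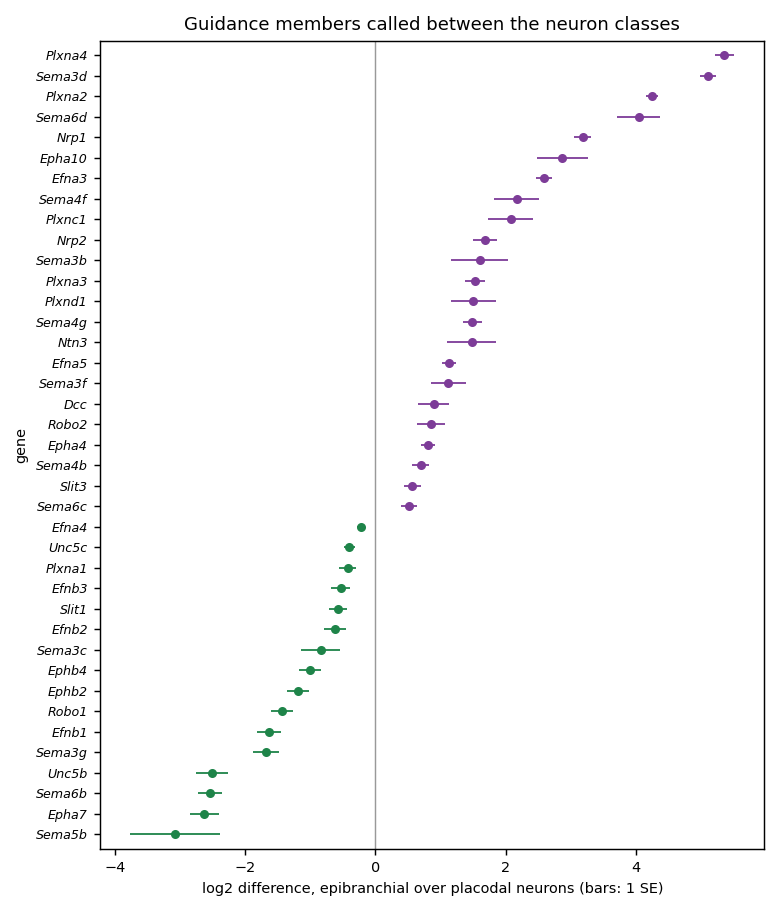
Log2 difference with 1 SE of the 39 guidance members called between epibranchial and placodal neurons, both genotypes together with the library as a block. Purple points on the right are higher in epibranchial neurons, with Plxna4 (5.36) first, and green points on the left are higher in placodal neurons, with Sema5b (-3.07) last. Sema5b had at most 1.71 CPM in any library of either type.

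Control placodal clusters were graded in receptors. Epha5 stood at 2.37 and 3.84 CPM in control libraries of cluster 18, which is led by Neurog1, a marker of neuronal precursors, at 27.6 and 15.1 CPM in cluster 1, at 119 and 86.1 CPM in cluster 16 and at 1323 and 1012 CPM in cluster 17. Cluster 17 was led by Epha5 although that gene took no part in the clustering. Nrp2 and Robo2 followed the same order of clusters in control, with 2.37 and 2.31 CPM of Nrp2 in cluster 18 and 164 and 131 CPM in cluster 17. Clusters 16 and 17 were the clusters that held few cKO placodal cells.

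**Figure D3:**
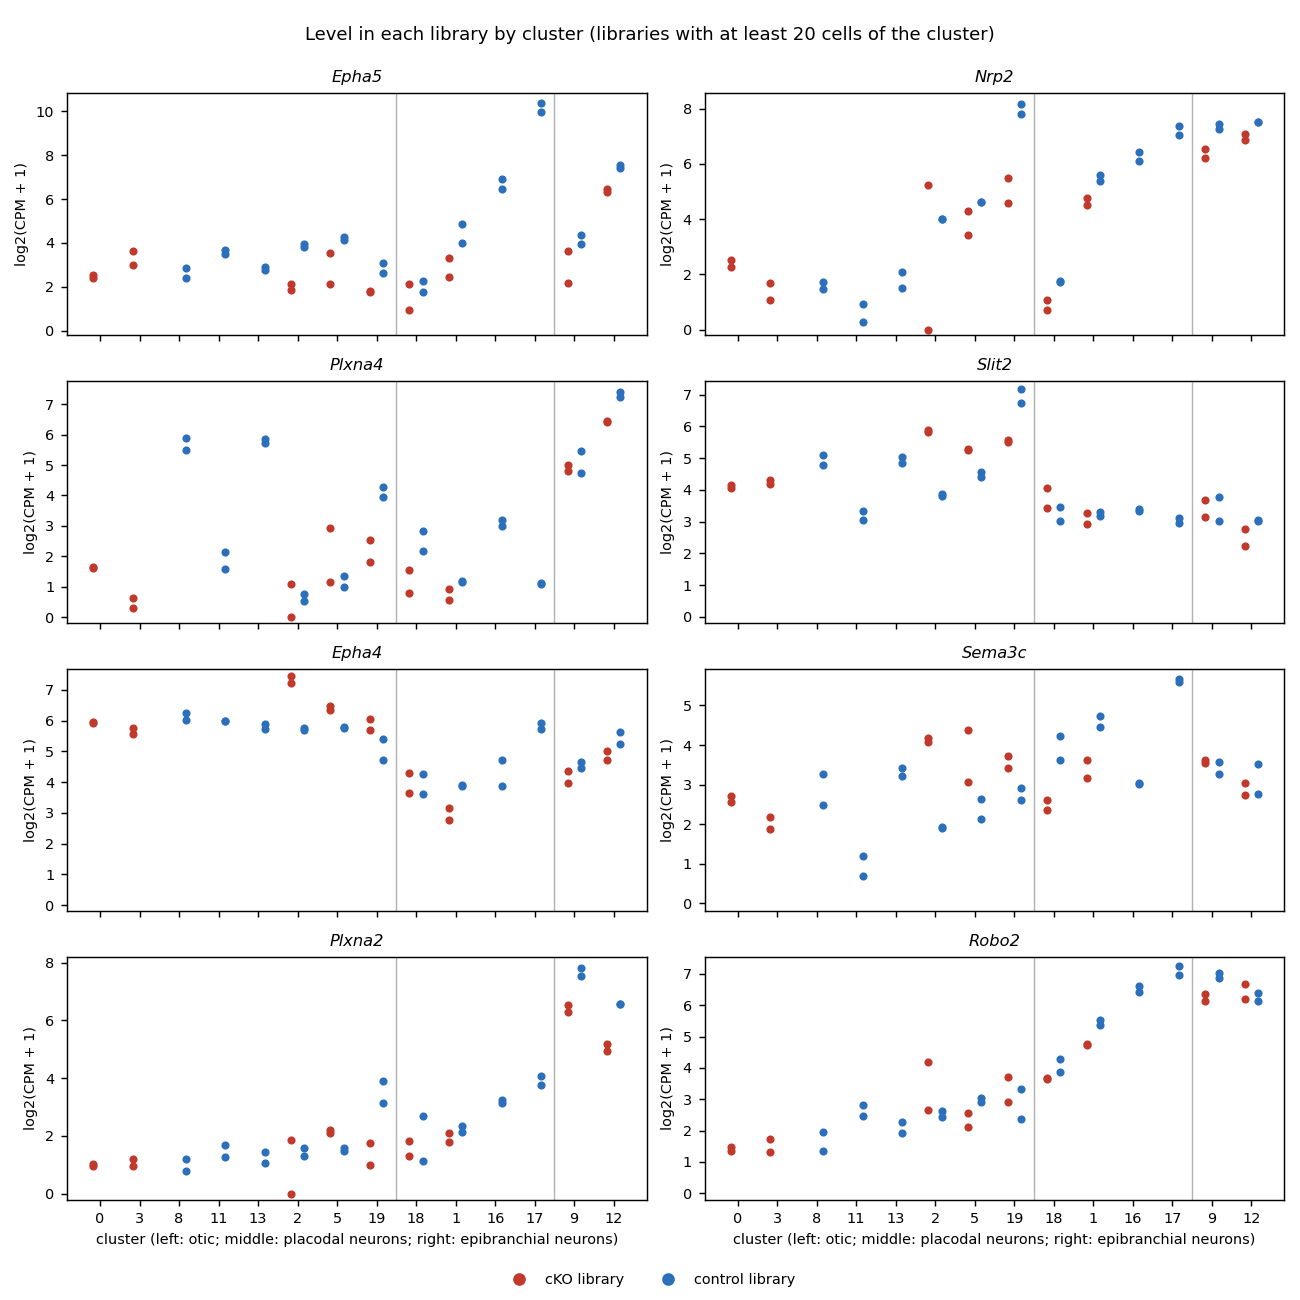
Level of 8 guidance members as log2(CPM + 1) in each cluster of the otic (left), placodal (middle) and epibranchial (right) classes, 1 point a library with at least 20 cells, cKO left of control. Epha5, Nrp2 and Robo2 climb over control placodal clusters 18, 1, 16 and 17, Plxna4 is high in control otic clusters 8 and 13, and Nrp2 and Slit2 in otic cluster 19.

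In otic epithelium, 36 of the 61 members tested changed between cKO and control, 11 higher and 25 lower, against 42.8% of all genes called. Their median log2 change was -0.28, and that of all genes tested -0.02. The largest declines among members with at least 10 CPM were in Plxna4, Nrp2 and Unc5b, and the largest rises in Slit3, Efna4 and Efnb3. By family, 4 of 8 plexins tested were lower and 0 higher, 3 of 5 EphB receptors and 3 of 4 netrin receptors were lower and 0 higher, and the class 3 semaphorins split into 3 higher and 3 lower of 7.

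Semaphorin receptors led the otic declines. Plxna4 (ENSMUSG00000029765, mm10 chromosome 6, 32144268 to 32588192) stood at 2.00 and 1.74 CPM in cKO otic cells, against 15.6 and 17.3 CPM in control otic cells (log2 -3.14, SE 0.13, edgeR adjusted p = 5.27e-07). Nrp2 (ENSMUSG00000025969, chromosome 1, 62703285 to 62818695), the partner of A-type plexins in binding Sema3c and Sema3f, stood at 3.60 and 6.67 CPM in cKO and 17.01 and 22.5 CPM in control (log2 -1.88, SE 0.22, edgeR adjusted p = 0.000222). Plxnb1, a receptor of Sema4d, stood at 13.7 and 12.7 CPM in cKO and 19.2 and 21.9 CPM in control (log2 -0.64), and Plxnb2 at 14.6 and 15.1 CPM in cKO and 18.1 and 19.3 CPM in control (log2 -0.33). In all 4, both cKO libraries lay below both control libraries, which was required of every gene given in full for a genotype comparison.

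Netrin and Eph receptors also fell in the otic class. Unc5b stood at 5.90 and 6.95 CPM in cKO and 15.8 and 17.7 CPM in control (log2 -1.36, SE 0.11, edgeR adjusted p = 2.78e-05). Unc5c stood at 25.1 and 24.4 CPM in cKO and 42.5 and 44.1 CPM in control (log2 -0.81, SE 0.07, edgeR adjusted p = 4.75e-05). Epha5 stood at 8.14 and 5.63 CPM in cKO and 10.6 and 10.8 CPM in control (log2 -0.66). Both Unc5 receptors, which mediate repulsion by netrins, and Epha5 did not overlap between genotypes, again a condition of their choice. Ephb2 had 11.1 and 11.8 CPM in cKO and 15.0 and 16.3 CPM in control (log2 -0.45), and its ligand Efnb2 had 25.4 and 30.2 CPM in cKO and 35.2 and 40.7 CPM in control (log2 -0.44). Robo1 had 24.02 and 28.1 CPM in cKO and 33.0 and 32.1 CPM in control (log2 -0.32). Adjusted p-values of these last 4 genes by edgeR lay between 0.00386 and 0.0166.

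Ligands made up most of the otic rises. Slit3 (ENSMUSG00000056427, chromosome 11, 35121224 to 35708507) stood at 28.4 and 28.1 CPM in cKO and 19.8 and 19.3 CPM in control (log2 0.53, SE 0.07, edgeR adjusted p = 0.000592). Efna4 (ENSMUSG00000028040, chromosome 3, 89333390 to 89338028) stood at 88.7 and 91.6 CPM in cKO and 63.8 and 61.8 CPM in control (log2 0.52, SE 0.07, edgeR adjusted p = 0.000364). Efna2 had 42.8 and 41.7 CPM in cKO and 30.0 and 33.9 CPM in control (log2 0.40), and Efnb3 had 13.3 and 12.8 CPM in cKO and 9.81 and 9.03 CPM in control (log2 0.46). Ligands of both ephrin classes thus lay above control in both cKO libraries, which the rule of choice required. Epha4, a receptor that binds ephrins of both classes, had 61.6 and 64.6 CPM in cKO and 54.2 and 52.0 CPM in control (log2 0.25, edgeR adjusted p = 0.0174), and Sema3g, under 2 CPM in every otic library, had 1.17 and 1.14 CPM in cKO and 0.108 and 0.147 CPM in control (log2 3.01).

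The otic changes depended on which clusters were compared. In clusters 2, 5 and 19 together, 16 members were called, 10 higher and 6 lower, against 18.9% of all genes. With clusters 6 and 10, which carry otic markers and are named to no class, the otic class had 37 calls, against 40.3% of all genes, and Epha4 was not among them (log2 0.16, edgeR adjusted p = 0.117). In the shared clusters the calls of Nrp2 (log2 -0.70, adjusted p = 0.053), Unc5b, Plxnb1 and Robo1 were lost, and Plxna4 (0.31), Efnb2 (0.27), Ephb2 (0.02), Plxnb2 (0.10) and Efna2 (-0.03) took the opposite sign, none of them past the threshold by edgeR. Plxna4 was high in control in otic clusters 8 (43.7 and 58.6 CPM) and 13 (51.5 and 57.3 CPM), which held few cKO cells, and stood at 2.14 and 2.08 CPM in cKO cluster 0. Without cKO 1 and without control 1 the call of Robo1 was lost (adjusted p = 0.114 and 0.069), without control 2 that of Plxnb2 (adjusted p = 0.0674), and without cKO 2 and without control 2 that of Epha4 (adjusted p = 0.164 and 0.0594). The otic class held a neural crest and glia marker list of 8 genes at a sum of 112 and 129 CPM in cKO and 221 and 241 CPM in control, and its part in the changes was not tested.

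Within single otic clusters the same ligand could move in opposite directions. In cluster 19, led by Col14a1 and Rspo3, Nrp2 stood at 22.9 and 45.3 CPM in cKO and 216 and 285 CPM in control (log2 -2.73, SE 0.20, edgeR adjusted p = 8.82e-07). Slit2, a Robo ligand, stood there at 44.6 and 49.0 CPM in cKO and 101 and 144 CPM in control (log2 -1.36, edgeR adjusted p = 0.000258). In all, 3 of the 36 members tested in cluster 19 were higher and 5 lower, against 8.61% of all genes called. In cluster 2, led by Rorb and Gdf6, Slit2 instead stood at 56.1 and 52.5 CPM in cKO and 14.4 and 13.8 CPM in control (log2 1.98, edgeR adjusted p = 6.54e-06), and in cluster 5 at 36.5 and 38.9 CPM in cKO and 20.1 and 22.7 CPM in control (log2 0.86). Over the whole otic class Slit2 was not called.

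Epha4 was higher in cKO in all 3 shared otic clusters. It stood at 143 and 163 CPM in cKO and 56.7 and 54.3 CPM in control of cluster 2 (log2 1.54, edgeR adjusted p = 7.88e-07), and its log2 change was 0.68 in cluster 5 and 0.84 in cluster 19. Epha5 fell in clusters 2 (log2 -2.18) and 5 (-1.61), and Sema3c rose in both (2.44 and 1.42). Slit3 rose in clusters 2 (1.33) and 5 (1.34), and Efna4 in clusters 5 (0.61) and 19 (0.74). A list of 7 markers of ventral nonsensory otic epithelium moved with these values, at a sum of 23.98 and 42.2 CPM in cKO and 240.0 and 255 CPM in control of cluster 2 and of 346 and 149 CPM in cKO and 1282 and 1294 CPM in control of cluster 19, and its part in the changes was not tested. Cluster 2 held 22 and 36 cKO cells, so its cKO values are the least deep.

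In placodal sensory neurons, 31 of the 52 members tested changed, 4 higher and 27 lower in cKO, against 37.7% of all genes called (18.6% higher and 19.1% lower). The median log2 change of the members was -0.51, and that of all genes tested -0.02. The largest decline was in Epha5, and the rises were in Slit3, Ephb4, Efna4 and Efnb3. Among the receptors, 7 of 8 plexins, both neuropilins, 3 of 4 EphA receptors, both Robo receptors tested and 2 of 3 netrin receptors fell. The calls of Plxna1, Plxnb1 and Plxnd1 were lost in 5 alternative fits each, and that of Plxnc1 in 6. Plxnd1 stood at only 0.184 and 0.247 CPM in cKO and 1.00 and 0.893 CPM in control. Plxnc1 stood at 0.735 and 0.247 CPM in cKO and 1.51 and 1.34 CPM in control. Of 5 EphB receptors, 1 fell (Ephb2), 1 rose (Ephb4) and 3 were not called.

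Epha5 (ENSMUSG00000029245, chromosome 5, 84054761 to 84417382) stood at 16.5 and 24.6 CPM in cKO placodal neurons, against 219 and 208 CPM in control placodal neurons (log2 -3.37, SE 0.16, edgeR adjusted p = 3.12e-05). In cluster 1 alone, Epha5 stood at 4.57 and 9.29 CPM in cKO and 26.8 and 14.7 CPM in control (log2 -1.56, edgeR adjusted p = 0.00499). Epha4 stood at 9.74 and 9.62 CPM in cKO and 21.2 and 20.4 CPM in control placodal neurons (log2 -1.10, SE 0.13, edgeR adjusted p = 0.000711). Ephb2 stood at 12.1 and 12.3 CPM in cKO and 24.7 and 30.0 CPM in control (log2 -1.16), and Efnb2 at 32.8 and 27.3 CPM in cKO and 71.7 and 66.9 CPM in control (log2 -1.21). For each of these Eph receptors and for Efnb2, both cKO libraries were below both controls, which the rule of choice required.

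Semaphorin signalling members fell together in placodal neurons. Nrp2 stood at 23.98 and 19.4 CPM in cKO and 56.3 and 68.4 CPM in control (log2 -1.53, SE 0.14, edgeR adjusted p = 0.000236). Nrp1 stood at 10.6 and 8.80 CPM in cKO and 19.4 and 20.8 CPM in control (log2 -1.05, SE 0.14, edgeR adjusted p = 0.00129). Their ligand Sema3c stood at 9.55 and 8.06 CPM in cKO and 23.4 and 21.3 CPM in control (log2 -1.34). Both neuropilins and Sema3c, which binds them, did not overlap between genotypes, a condition of their choice. Sema6a, a transmembrane ligand of A-type plexins, stood at 60.3 and 63.0 CPM in cKO and 127 and 133 CPM in control (log2 -1.07, SE 0.09, edgeR adjusted p = 0.000125).

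Robo2 stood at 27.5 and 26.4 CPM in cKO placodal neurons and 62.4 and 64.6 CPM in control placodal neurons (log2 -1.24, SE 0.09, edgeR adjusted p = 0.000101). Its ligand Slit3 stood at 10.3 and 11.9 CPM in cKO and 6.76 and 4.86 CPM in control (log2 0.94, edgeR adjusted p = 0.00807). Receptor and ligand of this pair thus moved in opposite directions. Ntn3, a netrin, had 4.87 and 2.14 CPM in cKO and 9.44 and 13.8 CPM in control (log2 -1.74, edgeR adjusted p = 0.0052). Efna4 had 41.3 and 41.7 CPM in cKO and 24.1 and 24.3 CPM in control (log2 0.77, SE 0.10, edgeR adjusted p = 0.000884), and Efnb3 had 12.4 and 11.9 CPM in cKO and 9.16 and 5.11 CPM in control (log2 0.77, edgeR adjusted p = 0.0407). Of the rises, Efna4 alone among these 3 kept its call in every fit that left out 1 library. Slit3 lost it without cKO 2 (adjusted p = 0.0556), and Efnb3 without cKO 1, cKO 2 or control 2 (adjusted p between 0.10 and 0.123). Without doublet removal Slit3 had a log2 change of 0.43 and was not called (edgeR adjusted p = 0.155).

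In the shared placodal clusters 1 and 18 together, 18 members were called, 3 higher and 15 lower, against 33.2% of all genes. Of the placodal genes named above, Ntn3 (log2 -0.35, adjusted p = 0.45), Efnb3 (log2 0.43, adjusted p = 0.0865) and Ephb4 (log2 0.52, adjusted p = 0.0978) lost their calls there by edgeR. Of the plexins that fell over the class, Plxna1 kept its call (log2 -0.52). Plxna2 (-0.36), Plxna3 (-0.60), Plxna4 (-0.82), Plxnb1 (-0.39), Plxnc1 (-1.05) and the netrin receptor Unc5b (-0.77) lost theirs. Ephb4 was also not called by DESeq2, without doublet removal or without cKO 1. Log2 changes in these clusters were smaller than in the class for Epha5 (-1.66), Nrp2 (-0.99), Robo2 (-0.72), Efnb2 (-0.61), Nrp1 (-0.58), Epha4 (-0.54) and Ephb2 (-0.46), all still called. In cluster 18 alone 4 of 29 members tested were higher and 5 lower, against 16.6% of all genes called, and in cluster 1 alone 2 of 46 were higher and 14 lower, against 27.8%. Sema3a went opposite ways, at 3.30 and 1.72 CPM in cKO and 6.01 and 4.75 CPM in control of cluster 1 (log2 -1.09) and at 5.10 and 5.81 CPM in cKO and 1.74 and 0.735 CPM in control of cluster 18 (log2 1.74). Efna3, not called over the whole class, was higher in cKO in both clusters (log2 1.41 and 1.54). Summed markers of other classes moved with genotype in placodal cells: the 14 ectoderm markers stood at 124 and 121 CPM in cKO and 54.3 and 32.6 CPM in control, with Foxi3 at 0, and the 10 epibranchial markers at 32.7 and 23.2 CPM in cKO and 80.9 and 131 CPM in control, and their part in the changes was not tested.

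**Figure D4:**
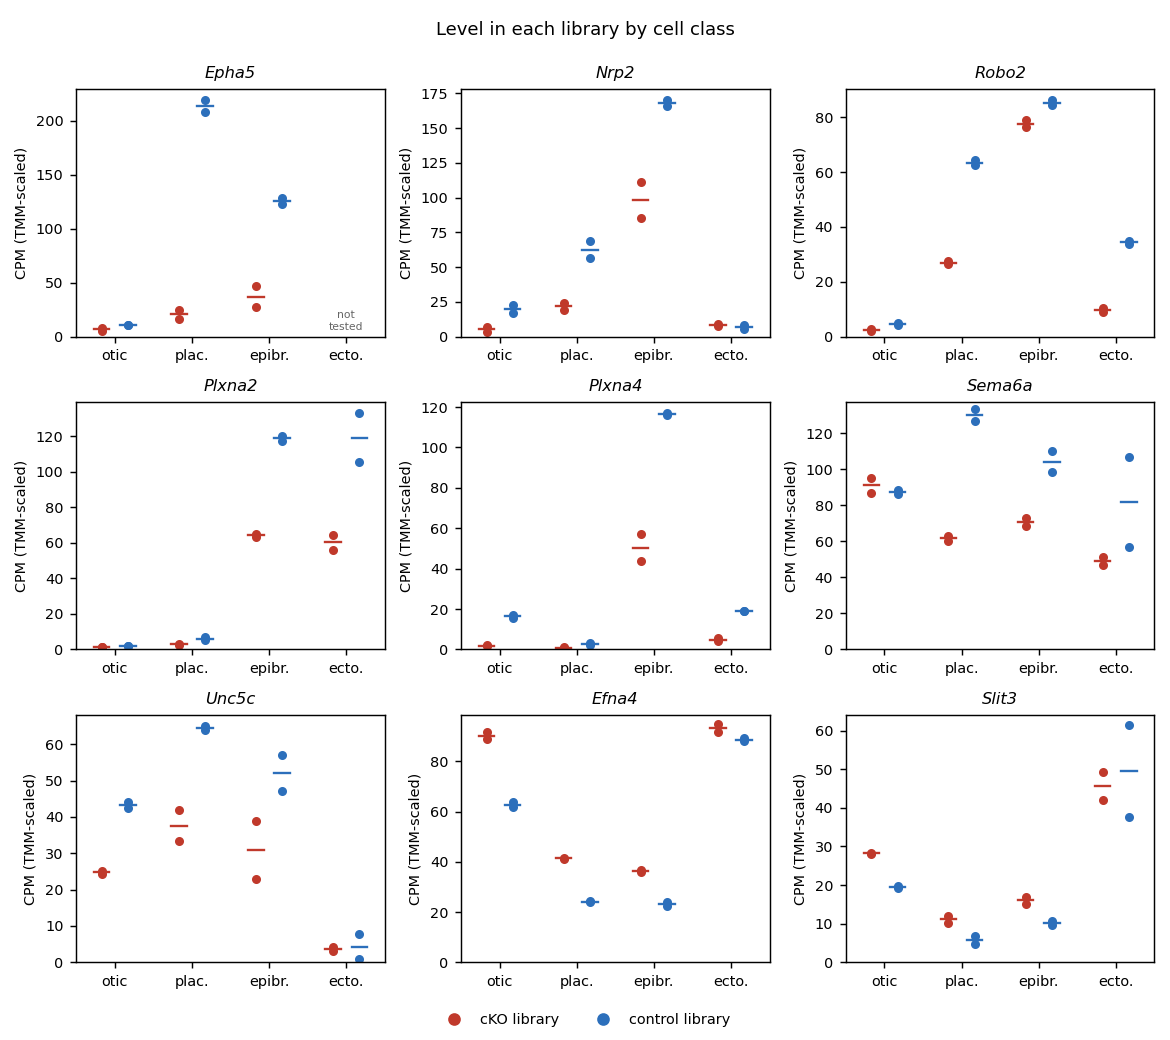
TMM-scaled CPM of 9 guidance members in each library (points, cKO left of control) with the mean of 2 libraries (line), in otic epithelium, placodal neurons (plac.), epibranchial neurons (epibr.) and ectoderm (ecto.). Epha5 in placodal neurons lies at 16.5 and 24.6 CPM in cKO, far below 219 and 208 CPM in control, while Efna4 lies higher in cKO in the otic and both neuron classes.

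In epibranchial neurons, 20 of the 51 members tested changed, 2 higher and 18 lower in cKO, against 25% of all genes called. The median log2 change of the members was -0.45, and that of all genes tested -0.01. Declines were found in 4 of 4 EphA receptors tested, in both neuropilins, in 3 of 8 plexins and in 5 of 10 semaphorins of classes 4 to 7, while no EphB receptor (0 of 4) and no Robo receptor (0 of 2) was called. These counts rested on the control libraries: without control 1 there were 4 calls, and without control 2 there were 0 by edgeR, with 21 members at an unadjusted p under 0.05 and 23 genes called in all. By DESeq2 on all 4 libraries 14 members were called, and in the shared epibranchial clusters 19 by edgeR, against 24.1% of all genes.

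Several receptors of semaphorins were lower in cKO epibranchial neurons. Plxna4 stood at 43.6 and 57.0 CPM in cKO and 116 and 117 CPM in control epibranchial neurons (log2 -1.20, SE 0.12, edgeR adjusted p = 0.0018). Plxna2 (ENSMUSG00000026640, chromosome 1, 194618218 to 194816869) stood at 63.3 and 64.9 CPM in cKO and 119.9 and 117 CPM in control (log2 -0.89, SE 0.08, edgeR adjusted p = 0.00120). Nrp2 stood at 85.6 and 111 CPM in cKO and 166 and 169.9 CPM in control (log2 -0.77), and Plxnb1 at 6.66 and 7.72 CPM in cKO and 13.6 and 13.3 CPM in control (log2 -0.88). In each of these receptors the genotypes did not overlap, a condition of their choice. In cluster 9 alone 1 of 39 members tested was higher and 6 lower, against 7.94% of all genes called, and in cluster 12 alone 2 of 45 were higher and 9 lower, against 11%. Plxna2 fell within cluster 9 (log2 -1.20) and within cluster 12 (log2 -1.39), and Plxna4 within cluster 12 (log2 -0.79).

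Other epibranchial members varied more between the cKO libraries. Sema3d stood at 5.35 and 27.2 CPM in cKO and 57.2 and 60.6 CPM in control (log2 -1.77, SE 0.46, edgeR adjusted p = 0.0264). Sema6d stood at 39.4 and 59.5 CPM in cKO and 101 and 98.4 CPM in control (log2 -0.995), and Unc5c at 22.8 and 38.9 CPM in cKO and 57.0 and 47.2 CPM in control (log2 -0.74). The cKO 1 library was the lower in all 3. Sema5a stood at 4.83 and 5.45 CPM in cKO and 13.1 and 18.01 CPM in control (log2 -1.56, edgeR adjusted p = 0.00440). By DESeq2, Sema3d was not called (adjusted p = 0.258).

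Epha5 stood at 27.7 and 46.5 CPM in cKO epibranchial neurons, against 122.5 and 128 CPM in control epibranchial neurons (log2 -1.73, SE 0.19, edgeR adjusted p = 0.00231). Within cluster 12, led by Prph and Ret, it stood at 82.7 and 87.5 CPM in cKO and 164 and 183 CPM in control (edgeR adjusted p = 0.000142). Epha4 stood at 19.6 and 22.4 CPM in cKO and 31.6 and 37.9 CPM in control (log2 -0.71). As in the otic and placodal classes, Efna4 and Slit3 were higher in cKO: Efna4 had 36.7 and 36.0 CPM in cKO and 23.97 and 22.3 CPM in control (log2 0.64), and Slit3 had 16.97 and 15.2 CPM in cKO and 10.6 and 9.67 CPM in control (log2 0.65). Without control 2 all 12 epibranchial genes given here lost their calls, with edgeR adjusted p between 0.051 (Plxna2) and 0.17 (Sema3d) and log2 changes of the same sign. The epibranchial class held 14 ectoderm markers at a sum of 225 and 179 CPM in cKO and 64.9 and 51.0 CPM in control and 12 mesenchyme markers at 201 and 139.7 CPM in cKO and 64.2 and 49.7 CPM in control, and their part in the changes was not tested.

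In ectoderm, 8 of the 47 members tested were lower and 0 higher in cKO, against 5.49% of all genes called (2.82% higher and 2.67% lower). Sema3a and Sema3c, both secreted ligands high in this class, were among them. Sema3a stood at 77.5 and 85.3 CPM in cKO and 177 and 265 CPM in control ectoderm (log2 -1.39, SE 0.16, edgeR adjusted p = 0.0012). Sema3c stood at 55.3 and 48.6 CPM in cKO and 103 and 114 CPM in control (log2 -1.04, SE 0.12, edgeR adjusted p = 0.00125). Robo2 had 9.05 and 10.4 CPM in cKO and 34.9 and 33.9 CPM in control (log2 -1.82, SE 0.18, edgeR adjusted p = 0.000438). Ligands and receptors alike were separated by genotype, which was required of genes given in full.

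A-type plexins fell beside them in ectoderm. Plxna4 stood at 5.53 and 4.08 CPM in cKO and 19.3 and 19.2 CPM in control (log2 -1.94), and Plxna2 at 56.2 and 64.2 CPM in cKO and 105 and 133 CPM in control (log2 -0.94). Efnb2 stood at 126 and 134 CPM in cKO and 173 and 175 CPM in control (log2 -0.42), Unc5b at 12.4 and 11.4 CPM in cKO and 25.0 and 20.1 CPM in control (log2 -0.98), and Sema6a at 51.4 and 47.1 CPM in cKO and 107 and 56.8 CPM in control (log2 -0.86). These last 3 lost their calls without cKO 1, without cKO 2 and without control 1, which leave 5, 5 and 6 members called. Without control 1, Sema6a had a log2 change of -0.20 (edgeR adjusted p = 0.634). By DESeq2 there were 4 calls. Control 2 gave 49 ectoderm cells and 1081449 UMIs, so its values are the least deep of this class.

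In mesenchyme, 5 of the 35 members tested were lower and 0 higher in cKO, against 6.06% of all genes called (3.17% higher and 2.88% lower), with 12 members at an unadjusted p under 0.05. Epha7 stood at 7.85 and 6.34 CPM in cKO and 26.4 and 46.7 CPM in control mesenchyme (log2 -2.29, SE 0.27, edgeR adjusted p = 0.0011). Epha4 stood at 6.68 and 11.6 CPM in cKO and 28.3 and 30.0 CPM in control (log2 -1.80, SE 0.24, edgeR adjusted p = 0.00248). Both EphA receptors did not overlap between genotypes, a condition of their choice. Nrp1 stood at 13.1 and 12.3 CPM in cKO and 22.6 and 36.5 CPM in control (log2 -1.20), Plxna2 at 8.21 and 8.57 CPM in cKO and 19.6 and 17.6 CPM in control (log2 -1.14), and Sema6c was the fifth, at 2.70 and 1.86 CPM in cKO and 6.46 and 7.61 CPM in control. The call of Nrp1 was lost without control 2 (edgeR adjusted p = 0.0651), which leaves 3 members called. That of Sema6c was lost with the replicate block, without doublet removal and in each of the 4 fits that left out 1 library. Plxna2 had a log2 change of -0.58 without doublet removal and was not called (edgeR adjusted p = 0.172), and DESeq2 called 0 of the members, with 7 at an unadjusted p under 0.05.

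Across the 5 classes, 13 members were lower in 3 or more classes and higher in none: Efnb2, Epha5, Epha7, Nrp2, Plxna2, Plxna4, Plxnb1, Robo2, Sema3d, Sema6a, Sema6d, Unc5b and Unc5c. Efna4, Efnb3 and Slit3 were higher in 2 or more classes and lower in none, and 21 members were called in no class, of which 7 were too low to be tested in any. All classes came from the same 4 libraries, so these calls are not independent of each other. The share of all genes that meet the same rules is not given, so these counts do not set the members apart. In the shared otic clusters Plxna4, Sema3d, Robo2 and Efnb2 took the opposite sign, and the epibranchial calls rested on the control libraries. Some calls were of low levels. Placodal Sema3d stood at 0.184 and 0.658 CPM in cKO and 1.62 and 1.34 CPM in control, and its call was lost in 6 of 12 alternatives. Otic Plxna2 stood at 1.20 and 1.31 CPM in cKO and 1.86 and 1.98 CPM in control. The calls of otic Plxna2 and of placodal Efnb3 were each lost in 6 of 13 alternatives. Over all kept cells, where a change of class shares also counts, 5 members were higher and 20 lower of 66 tested, against 27% of all genes called; without control 1 there were 16 calls and without control 2 there were 5.

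**Figure D5:**
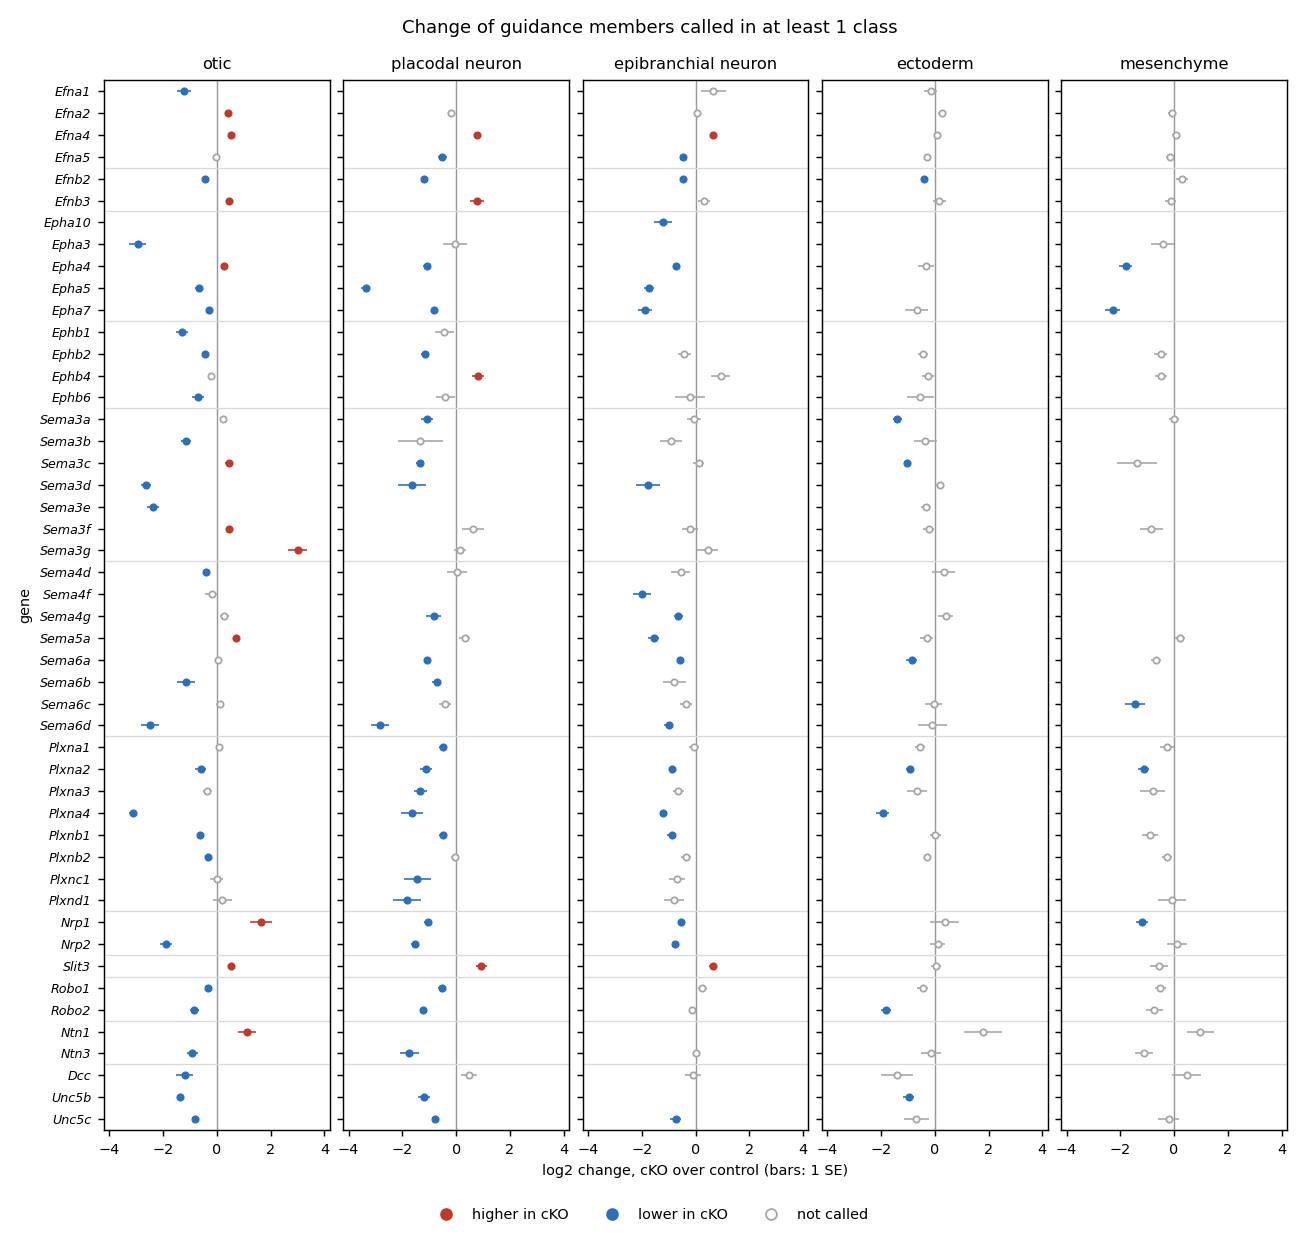
Log2 change of cKO over control with 1 SE for the guidance members called in at least 1 of 5 classes, 1 panel a class, red for higher and blue for lower in cKO, open grey circles for not called. Blue points outnumber red in each class (25 against 11 in otic epithelium, 27 against 4 in placodal neurons), and Efna4 and Slit3 are red in the otic and both neuron classes.

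The response to genotype differed between placodal neurons and otic epithelium for 21 of 60 members by the interaction test (edgeR, library as a block), 6 with a higher and 15 with a lower response, against 17.5% of all genes called (9.02% and 8.53%). Without cKO 1 there were 13 such calls, and without cKO 2 there were 10. Epha5 fell more in placodal neurons than in otic cells, by a difference of log2 changes of -2.65 (SE 0.23, edgeR adjusted p = 4.19e-05). Sema6a, at 91.8 and 84.4 CPM in cKO and 84.4 and 88.7 CPM in control otic cells, was not called there and fell in placodal neurons, a difference of -1.10 (SE 0.08, edgeR adjusted p = 1.07e-05). In the shared clusters Sema6a was instead lower in cKO in both classes, with a log2 change of -1.08 in otic cells (edgeR adjusted p = 3.79e-05) and of -0.90 in placodal neurons (edgeR adjusted p = 1.04e-05). Epha5 likewise had log2 changes of -1.81 in shared otic and -1.66 in shared placodal clusters. The interaction was not tested on the shared clusters. Epha4 rose in otic cells (log2 0.25) and fell in placodal neurons (-1.10), a difference of -1.32 (SE 0.11, edgeR adjusted p = 2.95e-05). Over the whole classes, Plxna4 fell more in otic cells (difference 1.49, edgeR adjusted p = 0.0422), as did Epha3, a low EphA receptor (3.00). In the shared clusters Plxna4 instead had log2 changes of 0.31 in otic cells and -0.82 in placodal neurons. Epha3 had -0.68 in otic cells and 0.45 in placodal neurons there, and none of these values was called by edgeR.

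The wider guidance machinery was followed through a list of 71 adaptors, effectors and co-receptors. In placodal neurons 7 were higher and 32 lower of 65 tested, against 18.6% and 19.1% of all genes, with a median log2 change of -0.35 in the list and -0.02 over all genes. Among those that fell, Gap43, a growth cone protein, stood at 82.3 and 80.8 CPM in cKO and 363 and 560.5 CPM in control (log2 -2.50, edgeR adjusted p = 9.27e-05), and L1cam at 1.38 and 1.73 CPM in cKO and 11.2 and 14.1 CPM in control (log2 -2.97). In otic epithelium 15 were higher and 19 lower of 67, against 22.2% and 20.6% of all genes, with medians of -0.15 in the list and -0.02 over all genes. There Cdon, a co-receptor of Hedgehog ligands, stood at 12.9 and 12.3 CPM in cKO and 45.7 and 47.3 CPM in control (log2 -1.88). The adaptor Nck2 was higher in cKO in the otic (log2 1.14), placodal (0.85) and epibranchial (0.80) classes. In epibranchial neurons 5 were higher and 30 lower of 67, against 11.9% and 13% of all genes. Calls in this class rested on the control libraries, as described for the members. The list is given here for whole classes only. Its changes therefore combine those within clusters with those in which clusters make up a class. In ectoderm the list had 2 higher and 10 lower of 58, against 2.82% and 2.67% of all genes, and in mesenchyme 1 higher and 3 lower of 53, against 3.17% and 2.88%.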

How the data were processed

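Droplet single-cell RNA libraries of sorted GFP-positive cells were deposited by the authors as UMI counts per gene and cell barcode, 2 cKO and 2 control libraries. Cell Ranger made the count matrices, in version 6.0.1 per the file headers and in version 3.1.0 per the submitters' processing notes, which also list FastQC 0.11.4, Seurat 4.1.0 and the build mm10. How duplicates and overlapping genes were handled beyond these tools is not given in the sources used here.

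From the deposited counts, barcodes were kept from 1000 detected genes upwards and up to 10% of UMIs in mitochondrial genes. Because the automatic Scrublet threshold called 0 to 5 barcodes a library, the highest doublet scores were removed at 0.8% per 1000 barcodes, which took 124 and 148 cKO and 154 and 160 control barcodes. Counts were scaled to 10000 per cell, and 2000 variable genes without the guidance members, 30 principal components, 20 neighbours and Leiden clustering at resolution 1 (scanpy 1.11.5, leidenalg 0.10.2, Python 3.11.15) gave 30 clusters. A cluster was named where at least 3 markers and 40% of a class's list had at least 10 CPM and at least 2 times the median cluster. It stayed unnamed where its 10 leading genes held more markers of another class, or where its median UMI count was under 33.3% of its samples' with none of its own markers leading. Clusters 6 and 10, which carry otic markers, stayed unnamed by this rule.

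UMI counts were summed per class and library and tested with edgeR 4.0.16 (R 4.3.3): filterByExpr, TMM scaling, the quasi-likelihood test, a prior count of 1, and Benjamini-Hochberg adjustment over all genes at 0.05. Comparisons of classes and the interaction had the library as a block. TMM-scaled CPM accompany each test, and CPM of the class total describe levels. For a single value, 2 libraries against 2 cannot go below an exact two-sided permutation p of 0.333. Tested on simulated data, the fit recovered 168 of 200 genes changed 2-fold in the otic class with 6 false calls, and 159 of 200 in the placodal class with 11. The simulation held 15026 and 12929 genes with a common dispersion. In the data 42.8% and 37.7% of genes were called and clusters differed by genotype, so these rates are not the error rates of the calls above.

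Genes given in full for a genotype comparison are up to 10 a direction with the largest change among called members with at least 10 CPM in a genotype and no overlap between genotypes. Members within clusters, and Sema3g, Sema6c and Epha3, were chosen after their values were seen. The members and lists were chosen with earlier results of these data known. Alternatives were RLE scaling, DESeq2 1.42.0, no filter on low counts, a replicate block, leaving out each library, clustering resolutions 0.5 and 2, members kept for clustering, shared clusters alone and no doublet removal. Single clusters, the otic class with clusters 6 and 10, and the epibranchial class without its low-UMI cluster 23 were added after seeing the data. Gene positions are from GENCODE on mm10 and promoters from RefSeq.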

Additional observations from a re-analysis of the deposited data

Results flagged for a closer look

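The response to genotype, tested as an interaction with the class by edgeR, differed between placodal neurons and otic epithelium for 21 members. The difference of log2 changes, placodal minus otic, was negative for 15: Sema3g (-2.76), Epha5 (-2.65), Nrp1 (-2.62), Plxnd1 (-2.19), Sema3c (-1.77), Epha4 (-1.32), Sema3a (-1.28), Sema6a (-1.10), Sema4g (-1.09), Plxna3 (-0.94), Efnb2 (-0.74), Ephb2 (-0.68), Efna2 (-0.58), Plxna1 (-0.55) and Epha7 (-0.52). It was positive for Efna4 (0.28), Efnb1 (0.52), Ephb4 (1.05), Plxna4 (1.49), Dcc (1.66) and Epha3 (3.00). Several of the larger differences rest on low levels. Sema3g (0.106 to 1.12 CPM) and Nrp1 (0.220 to 1.19 CPM) were low in otic cells. In both classes Plxnd1 stayed between 0.187 and 1.03 CPM, Dcc between 0.321 and 2.34 CPM and Epha3 between 0.321 and 5.82 CPM. These differences are of whole classes, whose clusters differ by genotype, and the interaction was not tested on the shared clusters.

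In opposite directions in different classes 4 members were called, of which Epha4, Nrp1 and Sema3c are also among the 21 above. Epha4 had log2 changes of 0.25 in otic cells, -1.10 in placodal neurons, -0.71 in epibranchial neurons and -1.80 in mesenchyme. Nrp1 had 1.64 in otic cells, -1.05 in placodal neurons, -0.55 in epibranchial neurons and -1.20 in mesenchyme. Its otic levels were low, at 1.23 and 0.682 CPM in cKO and 0.339 and 0.220 CPM in control. The otic call of Nrp1 was lost in 3 of 12 alternatives, among them that without doublet removal. Sema3c had 0.44 in otic cells, -1.34 in placodal neurons and -1.04 in ectoderm. Its otic call was lost in 7 of 13 alternatives: by DESeq2, without doublet removal, at clustering resolution 2, with the members kept for clustering, and without cKO 1, cKO 2 or control 1. With clusters 6 and 10 added to the otic class Epha4 was not called there (log2 0.16, edgeR adjusted p = 0.117). Sema5a had 0.73 in otic cells and -1.56 in epibranchial neurons. Differences other than that between otic and placodal cells were not tested.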

How the results depend on the processing

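The epibranchial calls rest most on single libraries. Leaving out each library in turn gave 28 to 31 member calls in otic epithelium, 21 to 30 in placodal neurons, 0 to 22 in epibranchial neurons, 5 to 10 in ectoderm, 3 to 6 in mesenchyme and 5 to 20 over all kept cells. For placodal over otic the range was 36 to 44, for epibranchial over placodal 33 to 39 and for the interaction 10 to 25. Single clusters gave 7, 14 and 8 calls in otic clusters 2, 5 and 19, 16 and 9 in placodal clusters 1 and 18, and 7 and 11 in epibranchial clusters 9 and 12, with fewer cells in each. The shares of all genes called were 4.08%, 16.3% and 8.61% in these otic clusters. They were 27.8% and 16.6% in the placodal and 7.94% and 11% in the epibranchial clusters. Shared clusters alone gave 16 otic and 18 placodal calls. DESeq2 gave 4 calls in ectoderm and 0 in mesenchyme, and no filter on low counts gave 9 in mesenchyme. The share of all genes called is not given here for DESeq2, the unfiltered fit, the replicate block or the fits without 1 library. Counts from those fits therefore do not set the members apart from other genes. With clusters 6 and 10 the otic class had 37 calls, and 29 to 34 without 1 library.

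In shared clusters alone the log2 change took the opposite sign for otic Plxna4 (0.31), Sema3d (0.32), Dcc (0.91), Sema6b (0.76), Robo2 (0.27), Ephb2 (0.015), Efnb2 (0.27), Sema4d (0.19), Plxnb2 (0.10), Efna2 (-0.026), Sema3f (-0.38) and Sema5a (-0.041) and for placodal Sema4g (0.11), and the cause was not tested. Over all values of single members under alternatives, 2308 stayed on the same side of the threshold, 336 lost their call and these 13 changed sign. With the replicate block the calls were 37 in otic, 28 in placodal, 21 in epibranchial, 8 in ectoderm, 5 in mesenchyme and 25 over all kept cells. Over genes, the log2 CPM difference between cKO 1 and cKO 2 was correlated with that between control 1 and control 2. The correlation lay between -0.070 and 0.034 over the classes and all kept cells. With 2 pairs of libraries it cannot tell whether same-numbered libraries share a batch. DESeq2 and the replicate block were not run for comparisons of classes, where the library is already a block.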
